A study of Mus musculus with 8 samples.

Results

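Glucose and pyruvate are taken up and burned by 10 genes followed here in control and trimetazidine (TMZ) treated mouse embryos. They were picked by function, with no threshold on expression, but with earlier results of these data known. On the route between the cell membrane and acetyl-CoA they cover glucose uptake (Slc2a1, Slc2a3), the early glycolytic kinases (Hk2, Pfkl) and lactate (Ldhb). They also cover the mitochondrial pyruvate carrier (Mpc1, Mpc2) and the pyruvate dehydrogenase complex (Pdha1, Pdhb, Dlat). The deposited tables carry no gene names, so entries were assigned to genes by their recovered length and their order, and every gene name here rests on that assignment. An entry could be assigned to 9 of the 10 genes, out of 26197 named entries in 2 tables. Hk2, which encodes the hexokinase that phosphorylates incoming glucose in growing cells, had no assigned entry, and no level is given for it.

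TMZ inhibits the long-chain 3-ketoacyl-CoA thiolase, the last enzyme of each round of mitochondrial fatty acid β-oxidation. Embryos of ICR mice, recovered from superovulated females aged 7 weeks, were cultured in KSOM medium, and the treated ones received 100 µM TMZ, per the labels from the 2-cell stage on. The methods of the study also name the zygote stage as the start of inhibitor treatment. All embryos were labelled wild type apart from the drug. Control and TMZ embryos were collected as 8-cell embryos at 70 h and as morulae at 78 h (counted from the hCG injection). The study reports arrest and delayed development of embryos under TMZ. An effect of the drug on a gene and a delay of the embryos therefore cannot be told apart here. Each of these 4 groups has 2 libraries. The TMZ libraries of the 8-cell stage carry no replicate number and are called A and B. The sources used here do not give the number of embryos in a library.

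Before compaction the mouse embryo is known to live mainly on pyruvate and lactate, and its glucose use rises as it forms a blastocyst. Glucose enters through facilitative transporters of the Slc2a family and is trapped and committed to glycolysis by hexokinase and phosphofructokinase. Pyruvate crosses the inner mitochondrial membrane through a carrier made of Mpc1 and Mpc2. Pyruvate dehydrogenase then turns it into acetyl-CoA, the same product that β-oxidation delivers from fatty acids.

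The libraries held 31672356 to 64814423 fragments, as solved from the values. TMZ library A of the 8-cell stage had the fewest entries above 0 (19466, against 21813 to 25336 in the other 8-cell libraries). Of 12 blastomere markers, all 12 had an entry, but Dppa2 alone had 898 to 1298 FPKM (fragments scaled to gene length and library total). The other 11 summed to 157 to 188 FPKM in control and 154 to 169 FPKM in TMZ libraries of the 8-cell stage, and to 247 to 258 FPKM in control and 189 to 192 FPKM in TMZ morulae. In morulae 8 of the 12 had both TMZ values below both control values (Pou5f1, Nanog, Tfap2c, Esrrb, Tead4, Cdh1, Krt8 and Cdx2). Sall4 and Dppa2 had both above. Of all entries averaging 1 FPKM or more, 33.3% had both below in morulae and 22.3% both above. At the 8-cell stage Tfap2c, Cdh1 and Cdx2 had both TMZ values below both controls, Krt18 and Dppa2 had both above, and 7 overlapped. There 37.7% of entries were apart in either direction. Krt8, an early trophectoderm keratin, had 1.8 to 3.4 FPKM at the 8-cell stage, 19.5 and 22.7 FPKM in control morulae and 11.2 and 6.43 FPKM in TMZ morulae. Krt18 overlapped between the morula groups, with 58.4 and 41.3 FPKM in control and 40.4 and 44.8 FPKM in TMZ libraries. Gata3 overlapped there too (3.9 and 2.2 against 4.22 and 1.98 FPKM). The part of these markers in the differences of the members with TMZ was not tested. Among markers of cumulus and granulosa cells, Nr5a2, which embryos express too, had 16.6 to 28 FPKM, and none of the other 8 with an entry exceeded 0.103 FPKM. Markers of the oocyte summed to 38.8 to 63.1 FPKM at the 8-cell stage and 30 to 45.3 FPKM in morulae, and their part in the differences between stages was not tested. In bulk libraries, fewer cells of a type and less RNA per cell cannot be told apart.

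Members of the route differed widely in level. On the FPKM scale, which divides by gene length, the medians over the 8 libraries were 137 for Pdhb, 110 for Pdha1, 108 for Mpc1 and 81.1 for Mpc2. Below these came Ldhb with 7.09, Dlat with 2.58, Slc2a3 with 1.8, Slc2a1 with 0.347 and Pfkl with 0.128 FPKM. Neighbours among the upper 4 genes overlapped in range, for instance 119 to 161 FPKM for Pdhb and 80.9 to 138 FPKM for Pdha1. A clear gap separated Mpc2 (59.4 to 107 FPKM) from Ldhb (4.63 to 13.4 FPKM). Dlat (0.95 to 3.8 FPKM) and Slc2a3 (0.749 to 5.14 FPKM) overlapped, as did Slc2a1 (0.0265 to 1.64 FPKM) and Pfkl (0.0418 to 0.447 FPKM). Thus the entries named for the pyruvate carrier and both E1 subunits of pyruvate dehydrogenase were high in all 8 libraries. Those named Slc2a1, Slc2a3 and Pfkl were low. Among other glycolytic genes, Gapdh had 0.938 to 3.03 FPKM, Tpi1 0.849 to 3.26, Pkm 0.308 to 2.02 and Eno1 1.46 to 4.38. Aldoa (24.4 to 101 FPKM) and Pgam1 (32 to 116 FPKM) were higher. Gapdh shares 48.4% of its exon bases with Iffo1. How far gene assignment and the counting of fragments that match several places bear on this order of levels was not tested. Slc2a8, another glucose transporter, had 1.57 to 10.5 FPKM.

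**Figure D1:**
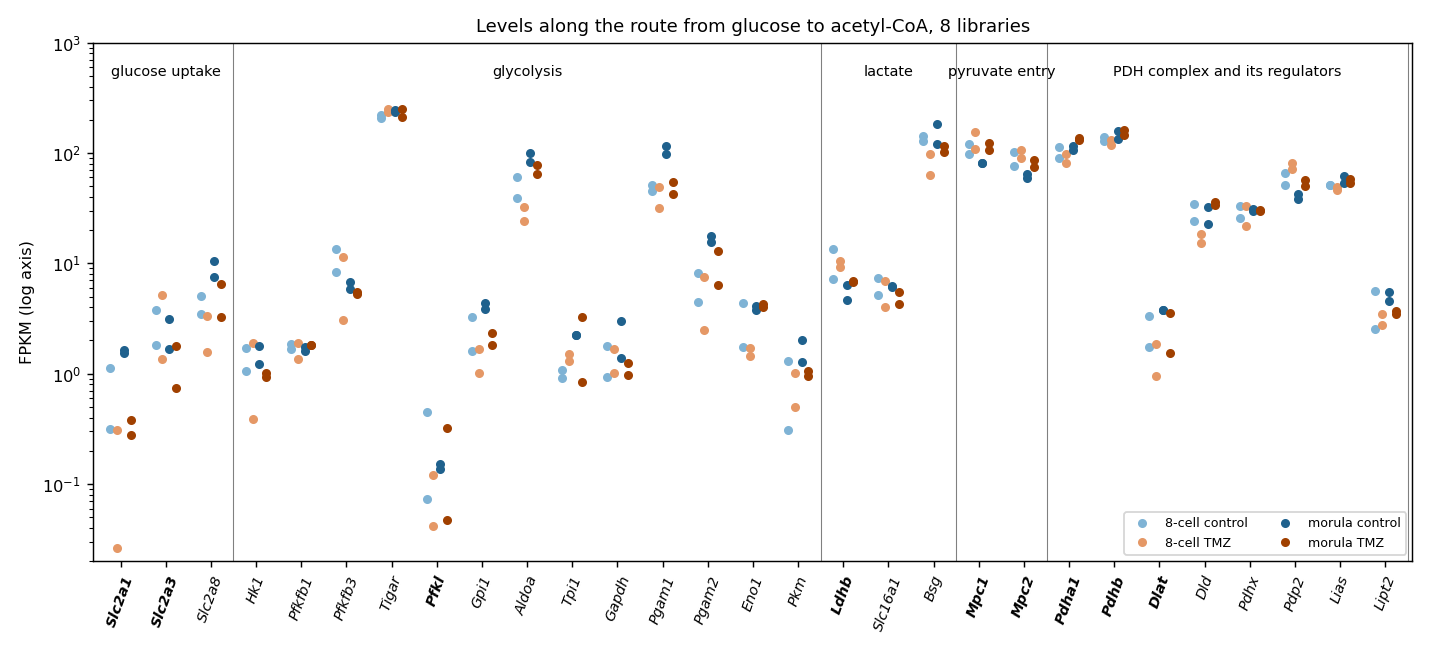
Level in FPKM (log axis) of 29 genes along the route from glucose to acetyl-CoA, 1 point per library and 2 points per group, with the 9 assigned members in bold. The other genes shown are those of fixed pathway lists that average 1 FPKM or more in the 8 libraries. Mpc1, Mpc2, Pdha1 and Pdhb lie between 59.4 and 161 FPKM in every library, and Slc2a1 and Pfkl lie below 2 FPKM throughout.

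To learn whether these genes differ under TMZ, treated and control libraries were compared at each stage by limma on the log2(FPKM + 1) scale. Entries averaging under 1 FPKM were filtered out. A gene was called at an unadjusted P under 0.05 with a log2 difference beyond 0.5, which are the thresholds of the study. The study applied them to another test, run on raw counts. Of the 9 assigned members, 7 passed the filter in each comparison, while Slc2a1 and Pfkl fell below it and were tested only without it. At the 8-cell stage 0 of the 7 were called (background: 6.31% of 10021 entries called), and 0 had an unadjusted P under 0.05 by limma or by voom on the fragment numbers. In morulae 1 of the 7, Mpc1, was called (17.9% of 9685 entries), and it was higher under TMZ (7.16% called higher). Without the filter Slc2a1 was called lower in TMZ morulae (3.05% of 29202 entries called lower). No member had an adjusted p-value under 0.05 in limma, where the smallest of the 7 was 0.82 at the 8-cell stage and 0.193 in morulae. The median log2 difference of the 7 members was -0.02 at the 8-cell stage and 0.28 in morulae, and that of all entries was -0.19 and -0.08.

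**Figure D2:**
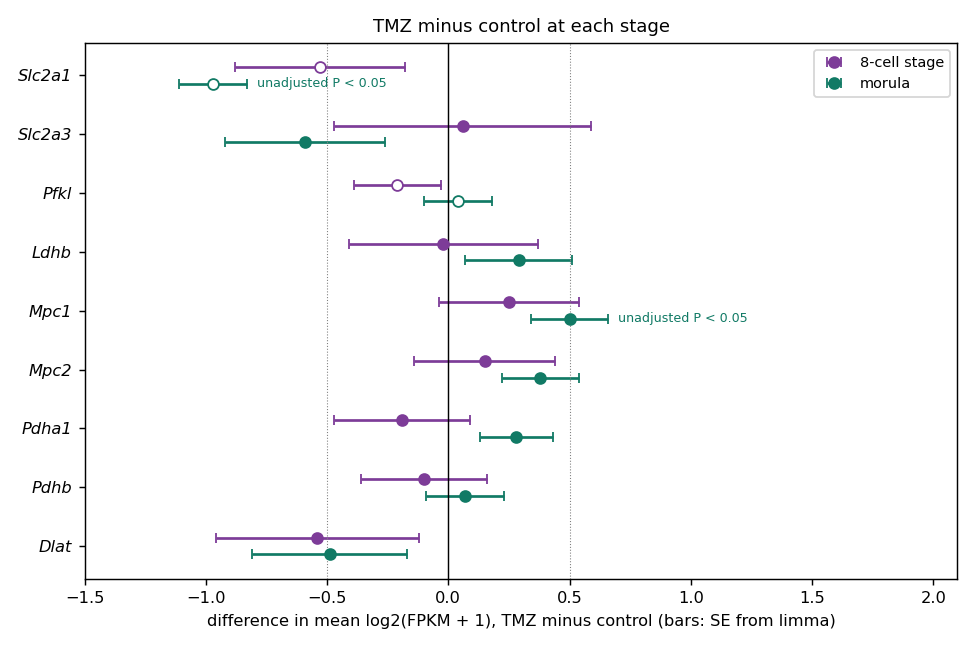
Difference in mean log2(FPKM + 1) between TMZ and control for the 9 assigned members at the 8-cell stage (purple) and in morulae (green), with standard errors from limma over 2 libraries per group. Open circles mark Slc2a1 and Pfkl, tested without the filter on low values, and dotted lines mark 0.5 on either side. In morulae Slc2a1 lies at -0.97 and Mpc1 at 0.50.

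Slc2a1 encodes Glut1, the transporter that supplies most cells with glucose under resting conditions (chr4:118965908-118996365, plus strand, GRCm39). In morulae its control libraries had 1.55 and 1.64 FPKM and its TMZ libraries 0.278 and 0.378 FPKM, or 180 and 193 fragments against 32 and 42. Both TMZ morula libraries were thus below both controls, and the mean was 4.85-fold lower under TMZ (1.6 ± 0.0611 against 0.328 ± 0.0706 FPKM, SD, n = 2). On the log2(FPKM + 1) scale, which compresses changes of so low a gene, limma gave -0.97 ± 0.14 (SE), which passed the call threshold at an adjusted p-value of 0.366. It was called lower in each of 9 alternatives run without the filter, from -0.91 to -2.29.

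At the 8-cell stage the Slc2a1 values were 1.12 and 0.316 FPKM in control libraries and 0.0265 and 0.308 FPKM in TMZ libraries A and B. The groups were barely apart, at 0.316 against 0.308 FPKM, and only 4 fragments stood behind the value of library A. The log2 difference of -0.53 ± 0.35 was not called (limma, adjusted p = 0.759), while voom on the fragment numbers called it lower, at -2.50 (adjusted p = 0.627). Leaving out control library 1 took it to -0.18 and leaving out control library 2 to -0.87, neither called. Whether the TMZ difference of Slc2a1 was the same at both stages was tested directly. The difference of differences was -0.44 ± 0.39 (limma, adjusted p = 0.898).

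The entry named Slc2a1 had a posterior probability of 0.952, close to the minimum of 0.95, and a recovered length of 3506 bases against 4691 annotated. The value therefore depends on a less certain name than that of Slc2a3, Mpc1 or Mpc2. None of its 64-base exon windows occurs elsewhere in GRCm39.

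Slc2a3 encodes Glut3, a high-affinity glucose transporter (chr6:122704768-122778599, minus strand). Its control and TMZ libraries overlapped at both stages. The 8-cell values were 1.81 and 3.76 FPKM in control and 1.36 and 5.14 FPKM in TMZ libraries, so that libraries A and B held the lowest and the highest value of the stage. Morula values were 3.13 and 1.68 FPKM in control and 0.749 and 1.79 FPKM in TMZ libraries. Limma gave log2 differences of 0.06 ± 0.53 and -0.59 ± 0.33, neither called, with adjusted p-values of 0.992 and 0.345. Leaving out TMZ library B turned the 8-cell value to -0.63, and leaving out library A took it to 0.75. Leaving out TMZ library 2 made the morula difference a called one, at -0.93, and leaving out TMZ library 1 took it to -0.25.

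Pfkl encodes the liver type subunit of phosphofructokinase, which makes the committed step of glycolysis (chr10:77818084-77845922, minus strand). It was barely detected. Control libraries of the 8-cell stage had 0.447 and 0.0738 FPKM and TMZ libraries 0.0418 and 0.12 FPKM, and in morulae the values were 0.136 and 0.152 FPKM in control and 0.32 and 0.0473 FPKM in TMZ libraries. The groups overlapped at both stages, on 10 to 122 fragments per library. The differences of -0.21 ± 0.18 and 0.04 ± 0.14 on the log2 scale were not called (limma, adjusted p = 0.759 and 0.943).

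Ldhb encodes the B subunit of lactate dehydrogenase, the isoform linked to the use of lactate as fuel (chr6:142435672-142454586, minus strand). At the 8-cell stage it had 13.4 and 7.25 FPKM in control and 9.22 and 10.4 FPKM in TMZ libraries, where both TMZ values lay between the controls. In morulae both TMZ libraries, 6.92 and 6.84 FPKM, were above both controls, 4.63 and 6.34 FPKM. Limma did not call the morula difference of 0.29 ± 0.22 (adjusted p = 0.471). Its entry had a recovered length of 1570 bases against 1795 annotated, at a posterior of 0.991. Of its 64-base exon windows 16.1% occur elsewhere in the genome. How fragments with several places were counted is not given in the sources used here.

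Mpc1 and Mpc2 encode the subunits of the mitochondrial pyruvate carrier, which work only as a pair (chr17:8501736-8516498 and chr1:165287125-165308785, both plus strand). Mpc1 had 81.2 and 80.6 FPKM in control morulae and 107 and 124 FPKM in TMZ morulae. Mpc2 had 59.4 and 64.2 FPKM in control morulae and 75 and 86.5 FPKM in TMZ morulae. For each subunit, both TMZ libraries were above both controls. The mean ratio of TMZ to control was 1.43 for Mpc1 (115 ± 11.7 against 80.9 ± 0.443 FPKM, SD, n = 2) and 1.31 for Mpc2 (80.8 ± 8.1 against 61.8 ± 3.4 FPKM). Limma called Mpc1 higher, at 0.50 ± 0.16 (adjusted p = 0.193), and Mpc2, at 0.38 ± 0.16, missed both limits (adjusted p = 0.268).

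The Mpc1 call sat on the threshold. It was lost without TMZ library 2 of the morula stage (0.40) and without control library 2 (0.50, just under the limit). It was lost too when all 8 libraries shared 1 fit (0.50, limma, adjusted p = 0.514). The direction held in each of the 12 alternatives for either subunit in morulae.

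At the 8-cell stage the carrier genes overlapped between groups. Mpc1 had 97.5 and 120 FPKM in control libraries and 154 and 108 FPKM in TMZ libraries A and B. Mpc2 had 75.8 and 102 FPKM in control libraries and 107 and 89.5 FPKM in TMZ libraries. Library A was the highest for both, and control library 1 the lowest. The log2 differences were 0.25 ± 0.29 for Mpc1 (limma, adjusted p = 0.885) and 0.15 ± 0.29 for Mpc2 (adjusted p = 0.938). For neither subunit was the difference between these values and those in morulae called (difference of differences 0.25 ± 0.33 and 0.22 ± 0.32, limma, adjusted p = 0.944 and 0.952). Within a library, the ratio of Mpc1 to Mpc2 stayed between 1.18 and 1.43 in all 8 libraries. The ratio of Mpc1 to Ldhb ran from 7.26 to 18.1, but Ldhb had 240 to 1059 fragments per library against 5586 to 14636 for Mpc1. For Pdha1 to Pdhb, another abundant pair, the ratio lay between 0.621 and 0.947. Whether a narrow span is particular to the carrier was not tested.

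The 200 bases before the start sites of the genes for the carrier and for Glut1 are shown because these are the members whose morula groups were called or nearly so. They were read from GRCm39 upstream of the start of the Ensembl canonical transcript, and capitals mark a GC box (GGGCGG, read on either strand).
Mpc1, chr17:8503086-8503285, plus strand: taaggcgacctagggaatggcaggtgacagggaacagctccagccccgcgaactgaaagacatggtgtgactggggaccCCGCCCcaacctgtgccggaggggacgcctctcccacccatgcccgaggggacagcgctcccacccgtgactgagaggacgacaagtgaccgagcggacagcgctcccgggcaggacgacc
Mpc2, chr1:165288043-165288242, plus strand: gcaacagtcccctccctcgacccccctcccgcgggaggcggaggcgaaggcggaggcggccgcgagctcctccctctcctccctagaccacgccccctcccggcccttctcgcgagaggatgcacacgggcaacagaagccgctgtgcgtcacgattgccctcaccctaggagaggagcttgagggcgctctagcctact
Slc2a1, chr4:118965708-118965907, plus strand: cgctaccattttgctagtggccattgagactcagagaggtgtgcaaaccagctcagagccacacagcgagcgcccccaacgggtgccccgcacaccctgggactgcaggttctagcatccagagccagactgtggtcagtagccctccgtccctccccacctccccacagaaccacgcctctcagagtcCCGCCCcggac

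The Mpc1 window held 1 GC box, at positions -121 to -116 from the start on the opposite strand, and the Slc2a1 window held 1 at positions -11 to -6 on the opposite strand. The Mpc2 window had none. Of 21770 such windows of protein-coding genes, 34.8% held this motif. None of the 3 windows held CCAAT (32.3% of windows), the E-box CACGTG (5.43%), CCGGAAG (6.29%), AAGGTCA (3.03%) or the palindromic NRF1 motif (0.648%), each searched on both strands. CpG sites numbered 15 for Mpc1, 18 for Mpc2 and 9 for Slc2a1, and the median window had 7. At least as many CpG sites stood in 22% of windows for Mpc1, 14.2% for Mpc2 and 42.4% for Slc2a1.

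Of the annotated exon bases of Mpc1, 23.5% are shared with 4930506C21Rik, and 35.6% of its 64-base windows occur elsewhere in the genome. Mpc2 shares no exon bases and only 0.185% of its windows. Both names had a recovered length within 2 bases of the annotated one (2082 of 2082 and 7344 of 7346 bases).

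Pdha1 and Pdhb encode the α and β subunits of E1, the pyruvate decarboxylase of the complex (chrX:158904237-158921426, minus strand, and chr14:14296739-14304802, plus strand). Pdha1 stood at 115 and 106 FPKM in control morulae and at 130 and 138 FPKM in TMZ morulae, so that both TMZ libraries were above both controls. The difference of 0.28 ± 0.15 was not called (limma, adjusted p = 0.335). At the 8-cell stage Pdha1 had 114 and 89.7 FPKM in control and 80.9 and 97.1 FPKM in TMZ libraries, which overlapped. That log2 difference, -0.19 ± 0.28 (limma, adjusted p = 0.914), equalled the median of all entries, and it turned to 0.06 after median-ratio scaling.

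Pdhb was the most even of the members above the filter. It had 139 and 128 FPKM in control and 130 and 119 FPKM in TMZ libraries at the 8-cell stage, and 157 and 135 FPKM against 161 and 146 FPKM in morulae. Groups overlapped at both stages. The log2 differences were -0.10 ± 0.26 and 0.07 ± 0.16 (limma, adjusted p = 0.966 and 0.828), the former turning to 0.15 after median-ratio scaling. Its 4 group means spanned 0.30 on the log2(FPKM + 1) scale, against 0.59 to 1.16 for the other members above the filter and Slc2a1. The ratio of Pdha1 to Pdhb in a library lay between 0.621, in 8-cell TMZ library A, and 0.947, in morula TMZ library 2.

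Dlat encodes E2, the acetyltransferase core that hands the acetyl group to coenzyme A (chr9:50543457-50571277, minus strand). In morulae it had 3.8 and 3.77 FPKM in control and 3.58 and 1.53 FPKM in TMZ libraries. Both TMZ values were below both controls, library 1 only slightly. At the 8-cell stage the values 3.31 and 1.75 FPKM in control and 1.86 and 0.95 FPKM in TMZ libraries overlapped. Neither difference was called, at -0.54 ± 0.42 and -0.49 ± 0.32 (limma, adjusted p = 0.82 and 0.4). Without TMZ library 1 the morula difference became a called one, at -0.92, and without TMZ library 2 it was -0.06.

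Per length, Pdha1 exceeded Dlat 28.2-fold to 102-fold in every library, although both are parts of the same complex. Other parts of the complex lay between them, with Pdhx, the E3-binding protein, at 21.8 to 33.2 FPKM and Dld, the shared E3 dehydrogenase, at 15.4 to 36.1 FPKM. The entry named Dlat had a recovered length of 4886 bases against 7559 annotated and a posterior of 0.964. The gap to Pdha1 therefore depends on a less certain name than that of Slc2a3, Mpc1 or Mpc2. Whether the length difference bears on its level was not tested.

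**Figure D3:**
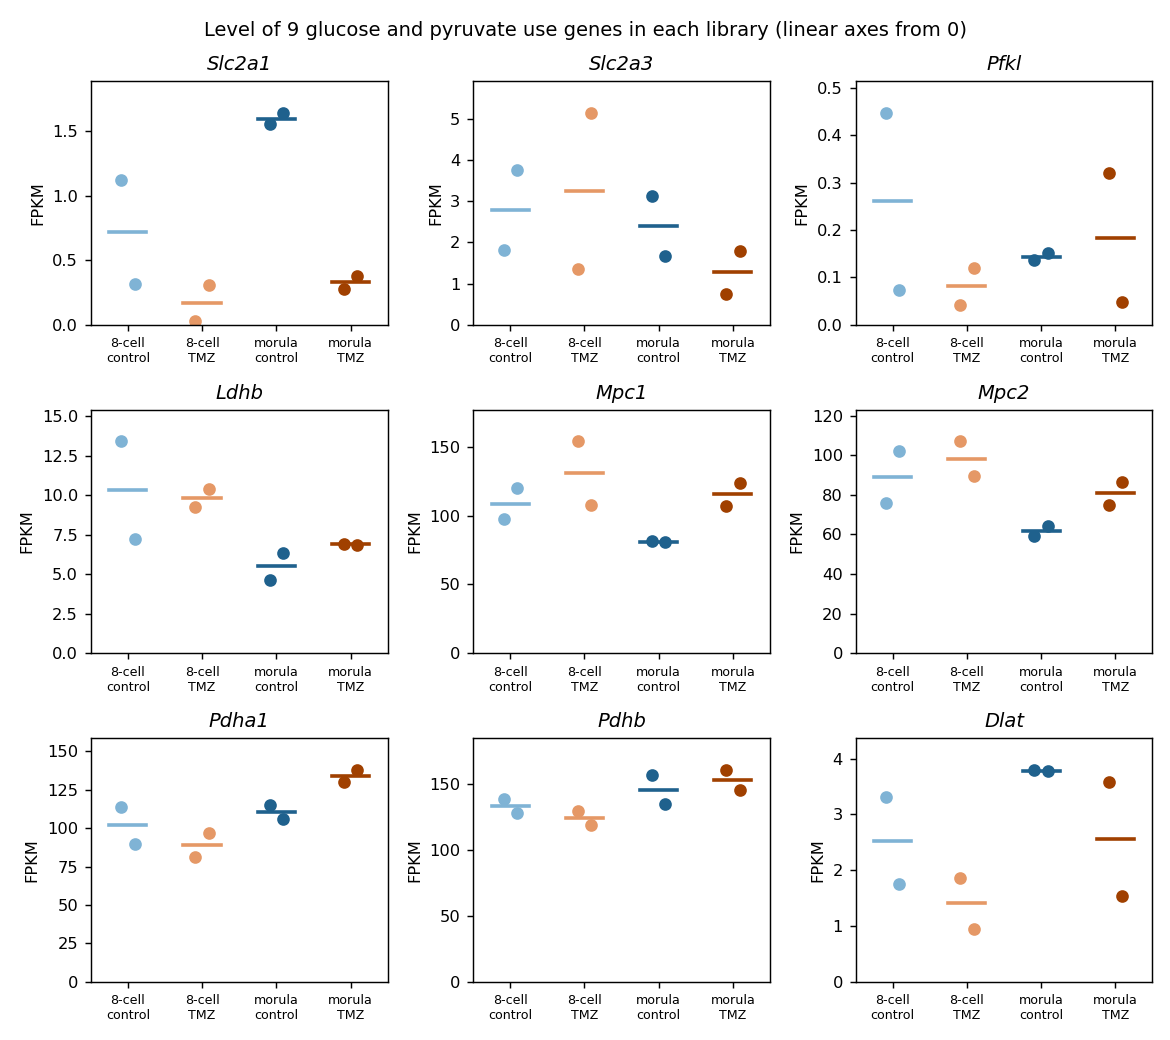
FPKM of the 9 assigned members in each library (linear axes from 0), 2 points per group with a bar at their mean. In morulae both TMZ points lie above both control points for Ldhb, Mpc1, Mpc2 and Pdha1 and below them for Slc2a1 and Dlat.

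Over the 7 members above the filter, control and TMZ libraries were apart for 0 at the 8-cell stage (37.7% of entries were apart) and for 5 in morulae (55.6% of entries). The morula count was 4 higher (22.3% of entries) and 1 lower (33.3%). As to the difference of the TMZ effect between stages, 0 of the 7 members had an unadjusted P under 0.05 in limma (7.86% of 8435 entries called). By voom on the fragment numbers the count was 0 as well.

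Stages were then compared, to see how the members change as embryos compact. Each stage has its own table, so stage cannot be told apart from any batch that differed between tables, and these comparisons share libraries with the TMZ comparisons above. The stage fits and the differences of differences used all 8 libraries, with a shared estimate of the spread. Leaving out a TMZ library can therefore change a call in control embryos while its log2 difference stays the same. From the 8-cell stage to the morula in control embryos, 2 of the 7 members were called, both lower (11.8% of 8435 entries called lower), and 0 higher (7.08%), also at an unadjusted P under 0.05 alone by limma or voom. In TMZ embryos 1 was called, Pdha1, and it was higher (11% called higher). Groups did not overlap for 4 of the 7 in control embryos (54.9% of entries) and 4 in TMZ embryos (49.3%). No member had an adjusted p-value below 0.178 in limma in either comparison.

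Ldhb fell in control embryos, from 13.4 and 7.25 FPKM at the 8-cell stage to 4.63 and 6.34 FPKM in morulae. The mean was 1.89-fold lower (10.3 ± 4.37 against 5.48 ± 1.21 FPKM, SD, n = 2), with a log2 difference of -0.76 ± 0.31 (limma, adjusted p = 0.23). This call was lost without 8-cell control library 1 (-0.36), without morula control library 1 (-0.57) and without either morula TMZ library (-0.76), as well as by voom (-0.89). In TMZ embryos the difference was -0.46 ± 0.31 (limma, adjusted p = 0.453), and both morula libraries were again below both 8-cell libraries.

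Mpc2 fell in control embryos too, by 0.51 ± 0.22 on the log2 scale (limma, adjusted p = 0.26), as its mean went from 89.1 ± 18.8 to 61.8 ± 3.4 FPKM. The call was lost in 9 of 16 alternatives. Among them were the fits without 8-cell control library 2 (-0.29), morula control library 1 (-0.45), morula control library 2 (-0.56) and either morula TMZ library (-0.51). Mpc1 went from 109 ± 16.1 to 80.9 ± 0.443 FPKM in control embryos, a difference of -0.42 ± 0.23 that was not called (limma, adjusted p = 0.364). For both carrier genes each control morula library was below each control 8-cell library. Under TMZ the carrier genes gave -0.16 ± 0.23 for Mpc1 and -0.28 ± 0.22 for Mpc2 (limma, adjusted p = 0.735 and 0.521). Leaving out 8-cell TMZ library A turned the Mpc1 value to 0.09.

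Pdha1 rose in TMZ embryos, from 80.9 and 97.1 FPKM at the 8-cell stage to 130 and 138 FPKM in morulae, 1.5-fold on the means (89 ± 11.4 and 134 ± 5.99 FPKM). Limma gave 0.59 ± 0.21 (adjusted p = 0.178). The call was lost without 8-cell TMZ library A (0.46), morula TMZ library 1 (0.63) or morula TMZ library 2 (0.54). In control embryos Pdha1 overlapped between stages (0.12 ± 0.21, limma, adjusted p = 0.791). The test of the difference itself, 0.46 ± 0.29, did not separate the increments (limma, adjusted p = 0.813).

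Slc2a1 was higher in both control morula libraries than in either control 8-cell library, 1.55 and 1.64 against 1.12 and 0.316 FPKM. Its log2 difference of 0.64 ± 0.28 missed the threshold (limma without the filter, adjusted p = 0.412). It passed without 8-cell control library 1 (0.98), with no trend (0.64) and after median-ratio scaling (0.68), and it fell to 0.29 without 8-cell control library 2. TMZ libraries overlapped between stages, at 0.20 ± 0.28 (limma, adjusted p = 0.851). Of the other members, Slc2a3 had -0.13 ± 0.49 and -0.79 ± 0.49 in control and TMZ embryos, Dlat 0.48 ± 0.38 and 0.53 ± 0.38, Pdhb 0.13 ± 0.19 and 0.30 ± 0.19, and Pfkl -0.12 ± 0.16 and 0.12 ± 0.16, none of them called by limma. Without 8-cell TMZ library A, Slc2a3 in TMZ embryos became called, at -1.47, and without library B it was -0.10.

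**Figure D4:**
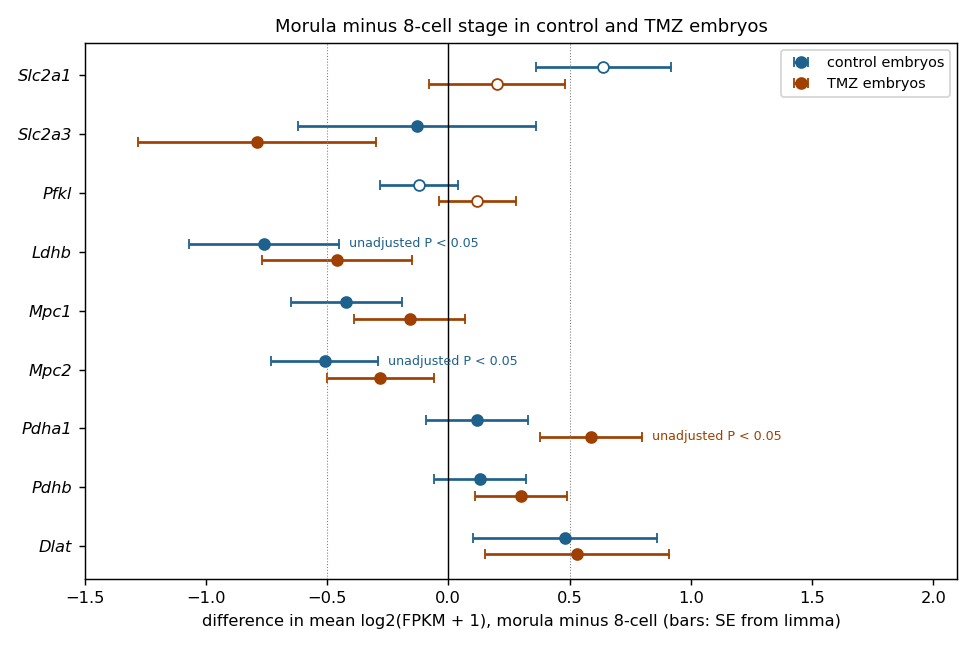
Difference in mean log2(FPKM + 1) between morula and 8-cell stage for the 9 assigned members, in control embryos (blue) and TMZ embryos (brown). Standard errors are from limma fits of all 8 libraries, 2 per group, with a shared spread, and open circles mark members tested without the filter. Ldhb and Mpc2 lie at -0.76 and -0.51 in control embryos and Pdha1 at 0.59 in TMZ embryos.

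Other genes of the same pathways came from 7 lists holding 81 genes, of which 61 had an assigned entry. With TMZ at the 8-cell stage, limma called 0 of 29 tested genes higher (1.35% of entries) and 1 lower (4.96%). At an unadjusted P under 0.05 alone, limma had 0 higher, and voom had 0 higher and 3 lower. Of all 10021 entries voom called 108 higher and 337 lower. The gene called by limma was Bsg, the partner protein of the monocarboxylate transporters, with 144 and 128 FPKM in control and 97 and 63.4 FPKM in TMZ libraries (-0.79 ± 0.30, limma, adjusted p = 0.771). In morulae limma called 0 of 28 higher (7.16% of entries) and 7 lower (10.7%). The median of the 28 was -0.30, and that of all entries was -0.08. At an unadjusted P under 0.05 alone, limma had 0 higher, and voom had 1 higher and 6 lower. Of all 9685 entries voom called 672 higher and 1250 lower. The 7 called lower by limma were the glucose transporter Slc2a8, 3 glycolytic genes (Gpi1, Pgam1, Pgam2) and 3 of the pentose phosphate pathway (Pgd, Tkt, Taldo1).

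Pgam1, a phosphoglycerate mutase, had 97.3 and 116 FPKM in control and 54.9 and 42.8 FPKM in TMZ morulae (-1.12 ± 0.19, limma, adjusted p = 0.161), but 80.3% of its 64-base exon windows occur elsewhere in the genome. Pgd, the second dehydrogenase of the pentose phosphate pathway, had 11.4 and 12.3 FPKM in control and 6.39 and 4.91 FPKM in TMZ morulae (-0.96 ± 0.21, limma, adjusted p = 0.167). Slc2a8 had 7.5 and 10.5 FPKM against 6.44 and 3.29 FPKM (-0.81 ± 0.32, limma, adjusted p = 0.237). This last call was lost in 5 of 12 alternatives, among them those without control library 2 (-0.59) or TMZ library 2 (-0.41) and after median-ratio scaling (-0.72). The Bsg call at the 8-cell stage was lost in 6 of 11 alternatives, among them on leaving out either control library or TMZ library B (-0.48).

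Between stages in control embryos, 5 of 29 genes of these lists were called higher (7.08% of entries) and 1 lower (11.8%). Pgam2 (1.31 ± 0.47), Pgam1 (1.14 ± 0.26) and Slc2a8 (0.92 ± 0.38) rose most, and Pdp2, a phosphatase that activates pyruvate dehydrogenase, fell by 0.52 ± 0.21 on the log2 scale (limma, adjusted p = 0.18, 0.0753, 0.234 and 0.229). In TMZ embryos 4 were called higher (11% of entries) and 1 lower (7.84%). Aldoa (1.30 ± 0.27), Dld (1 ± 0.27) and Eno1 (0.99 ± 0.34) rose most, and Pdp2 fell by 0.51 ± 0.21 (limma, adjusted p = 0.0676, 0.108, 0.166 and 0.235). Each of these calls except those of Pgam1, Aldoa and Dld was lost in at least 1 fit with a library left out.

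Slc2a1 had the widest span of group means among the members, 1.16 on the log2(FPKM + 1) scale. The assigned genes most like it over the 8 libraries, among 4466 that average 5 FPKM or more, were Dhx32 (Pearson r = 0.99), Slc4a11 (0.98) and Eme1 (0.98). These 8 points share the 4 group means and the library totals, and the values describe these libraries only. Dhx32, for example, had 11.9 and 12.2 FPKM in control and 7.32 and 7.44 FPKM in TMZ morulae.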

How the data were processed

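RNA of 8 libraries was sequenced after full-length mRNA amplification. Per the labels, reads were trimmed with fastp 0.23.4, aligned to GRCm39 with STAR 2.7.9a and counted with featureCounts 2.0.6, and the authors deposited FPKM values in 2 tables. FPKM divides fragments by gene length and library total. The annotation release, strand and multi-mapping settings are not given in the sources used here.

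The tables name no genes. Lengths and totals were solved from the values, which are whole multiples of 1 fragment, and rows were aligned in order to GENCODE vM39 exon lengths by a hidden Markov model tested on simulated decoys (posterior at least 0.95). Of 31899 and 29202 entries, 24275 and 22363 were named.

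Fits used limma 3.58.1 in R 4.3.3, a pseudocount of 1, and a mean of at least 1 FPKM, and were tested on simulated data. The study calls the 2 libraries of a group biologically independent, but its methods state another number of biological replicates, and the labels name no separate collections, so p-values measure the spread between these libraries. Members and gene lists were chosen with earlier results of these data known. Named pathway genes are the 3 largest rises and falls past the threshold without overlap of groups. Same-numbered libraries were checked for pairing. Pseudocount, filter, scaling, trend, voom, posterior and library choice were varied.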

Additional observations from a re-analysis of the deposited data

Results flagged for a closer look

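Among the members, the TMZ difference did not pass the test of a difference between stages. Among the other pathway genes, 2 of 29 passed it (7.86% of all 8435 entries did) at an unadjusted P under 0.05. For Dld the TMZ difference in morulae minus that at the 8-cell stage was 1.11 ± 0.38 (limma, adjusted p = 0.514), with 34.7 and 24.4 FPKM in control and 18.6 and 15.4 FPKM in TMZ libraries at the 8-cell stage, and 32.4 and 22.5 FPKM against 33.8 and 36.1 FPKM in morulae. For Pgam1 it was -0.86 ± 0.37 (limma, adjusted p = 0.614). The call was lost in 3 of 14 alternatives for Dld and in 7 of 15 for Pgam1. Sdhaf3, an assembly factor of succinate dehydrogenase, had its TMZ libraries below both controls at the 8-cell stage and above both in morulae, and the difference of 0.76 ± 0.40 did not pass the test (limma, adjusted p = 0.76).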

How the results depend on the processing

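Of 573 refits of the members' differences, 518 kept direction and call, 21 lost the call, 7 gained it and 27 changed sign, none of these in a called difference. By median-ratio scaling, which moved the median of all entries at the 8-cell stage from -0.19 to 0.01, the 8-cell TMZ differences of Ldhb, Pdha1 and Pdhb turned to 0.21, 0.06 and 0.15, and the differences of differences of Pdhb and Dlat to -0.01 and -0.07. Voom gave 0.21 for the difference of differences of Slc2a1 and -0.19 for Pfkl in morulae. With a library left out, TMZ differences at the 8-cell stage ranged from -0.63 to 0.75 for Slc2a3, -0.42 to 0.01 for Pfkl, -0.42 to 0.39 for Ldhb and -0.06 to 0.37 for Mpc2, and in morulae from -0.13 to 0.21 for Pfkl and -0.04 to 0.18 for Pdhb. Stage differences ranged in control embryos from -0.51 to 0.25 for Slc2a3, -0.34 to 0.09 for Pfkl and -0.05 to 0.30 for Pdha1, and in TMZ embryos from -0.04 to 0.29 for Pfkl and -0.41 to 0.09 for Mpc1. Differences of differences ranged from -1.34 to 0.04 for Slc2a3, -0.09 to 0.71 for Ldhb and -0.38 to 0.48 for Dlat. The causes were not tested.

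Counts of called entries moved with the filter and the fit. A mean of at least 5 FPKM tests fewer entries. For TMZ it gave 281 at the 8-cell stage (632 in the main limma fit) and 1058 in morulae (1733). Between stages it gave 884 in control and 953 in TMZ embryos (1593 each), and 305 (663) for the difference of differences. All 8 libraries in 1 fit gave 1041 and 813 for TMZ. Leaving out a library gave 276 to 1872, 793 to 1874, 902 to 2132, 822 to 2229 and 353 to 1212 in the same order. By median-ratio scaling the calls for TMZ split into 268 higher and 280 lower at the 8-cell stage (135 and 497 in the main fit). In morulae they split into 946 and 772 (693 and 1040). Between stages they split into 791 and 836 in control embryos (597 and 996) and 772 and 885 in TMZ embryos (932 and 661). For the difference of differences they split into 411 and 221 (545 and 118). Where a group was left with 1 library, that library is assumed to vary like the others.

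Across entries, same-numbered morula libraries hardly deviated together (r = 0.0762), nor did the control libraries of both stages (0.0664). Whether same-numbered libraries share a collection or batch was not tested, and the main fits used no pairing. With the replicate block 1989 entries were called for TMZ in morulae, 229 of them at an adjusted p-value under 0.05 in limma against 3 without the block, and 2017 between stages in control embryos, where Ldhb was no longer called (-0.76). In so few libraries the block leaves little to estimate the spread of an entry, and these p-values lean on the spread pooled over entries. The larger counts are therefore no test of pairing. For the members below the filter, fits without the filter and with another choice changed as well were added after the data were seen. At 4 to 193 fragments for Slc2a1 and 10 to 122 for Pfkl, depth limits both.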
